A study of Mus musculus with 127 samples.

Results

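The transcripts of 39 genes of DNA replication were followed in single cells of mouse bone marrow. The genes were chosen by name, as a list of replication factors, with no threshold on a value measured here, and the list was drawn up with earlier results of these data known. All 39 are among the 23946 genes of the expression table, and all 39 passed the filter on low values used below. They comprise the 6 subunits of the MCM helicase (Mcm2, Mcm3, Mcm4, Mcm5, Mcm6 and Mcm7), 7 factors that load or activate it (Mcm10, Cdc6, Cdc45, Gins1, Gins2, Gins3 and Gins4), 6 polymerase and primase genes (Pola1, Pola2, Pold1, Pole, Prim1 and Prim2) and the clamp Pcna with 4 clamp loader genes (Rfc2, Rfc3, Rfc4 and Rfc5). The rest are 5 genes of single-strand binding and strand joining (Rpa1, Rpa2, Rpa3, Fen1 and Lig1), 6 of nucleotide supply and uracil removal (Tyms, Rrm1, Rrm2, Tk1, Dut and Ung) and 4 of chromatin duplication (Uhrf1, Chaf1a, Chaf1b and Slbp).

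The study sequenced the RNA of single cells, captured on microfluidic chips, from the marrow of wild-type C57BL/6 mice. Marrow cells were first enriched with magnetic beads for CD117, the Kit receptor of progenitors, and then sorted. The labels give 46 cells as Ly6g high, 41 as Ly6g low and 40 as CD11b+, and describe the cells of every gate as positive for CD11b and as GMP-P, which they do not spell out. Ly6g is a surface protein of the neutrophil lineage, and CD11b, the product of Itgam, is an integrin of myeloid cells. No treatment was given, and neither an age nor an animal is named for any cell. Each gate was therefore 1 sample, no test between gates could be made, and every difference below lacks a replicate check.

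A cell that is about to copy its genome loads the MCM helicase at origins and then turns it on with Cdc45 and the GINS complex. Primase and the polymerases build the new strands behind the helicase, while the sliding clamp Pcna, its loader, the single-strand binding protein RPA and the ligase keep synthesis continuous. Ribonucleotide reductase, thymidylate synthase and thymidine kinase supply the nucleotides, and histone chaperones rebuild chromatin. Transcripts of most of these genes rise as a cell passes from G1 into S phase, and granulocyte precursors stop dividing as they mature, so these genes are commonly read as a sign of cycling in this lineage.

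Levels were deposited as log2(TPM + 1), where TPM is a gene's share of a cell's transcripts, corrected for transcript length. A gene was called detected in a cell at 1 TPM or more. The number of genes detected per cell differed between the gates: Ly6g high cells had a median of 1695 genes (966 to 4679), Ly6g low cells 2521 (1159 to 5058) and CD11b+ cells 2465 (821 to 5173). Read depth is unknown, because TPM does not keep it. Ly6g transcript was detected in 78.3% of Ly6g high, 68.3% of Ly6g low and 20% of CD11b+ cells, and Itgam in 89.1%, 90.2% and 67.5%. The authors also gave each cell 1 of 11 class names, and the class Myelo-2 held 27, 31 and 14 cells of the 3 gates. The titles and cell names used here name no capture plate or sequencing run, so gate cannot be told apart from either. Only the names of the CD11b+ cells carry a prefix of digits, and these cells are numbered on their own. The Ly6g low and Ly6g high cells share a single run of numbers. Cell names also end in a letter and number that read as a capture position, and 18 positions occur in both Ly6g gates. Whether the prefix, the numbers or the positions mark a batch is not said.

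Ly6g high cells contained few replication transcripts, and Ly6g low and CD11b+ cells many. Of the 39 genes, a Ly6g high cell had 7.87 ± 8.19 detected (mean ± SD over 46 cells), with a lowest cell of 0, a median of 3 and a highest of 33. A Ly6g low cell had 19.1 ± 9.36 (41 cells; lowest 1, median 20, highest 33), and a CD11b+ cell 19 ± 10.3 (40 cells; lowest 2, median 21.5, highest 34). The ranges of the gates overlapped almost fully, and the medians of the latter 2 gates lay within 1 SD of each other.

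Most Ly6g high cells had few replication genes and a minority had many. Between 0 and 7 replication genes were detected in 31 of 46 Ly6g high cells, which is 67.4% with an exact 95% binomial (Clopper-Pearson) interval of 52 to 80.5%. None of the 46 had 8 to 11 of the genes, and the remaining 15 had 12 or more; these limits were set after the counts were seen. The empty interval depends on the limit of detection, since at 10 TPM or more 32 cells had 0 to 7 of the genes, 3 had 8 to 11 and 11 had 12 or more. Among Ly6g low cells 7 of 41 had at most 7 of the genes (17.1%, interval 7.15 to 32.1%), and among CD11b+ cells 8 of 40 (20%, interval 9.05 to 35.6%). Cells with 20 or more of the genes made up 5 of 46 Ly6g high (10.9%, interval 3.62 to 23.6%), 22 of 41 Ly6g low (53.7%, interval 37.4 to 69.3%) and 23 of 40 CD11b+ cells (57.5%, interval 40.9 to 73%). These intervals cover counting error only.

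The 2 most widespread members were also found in cells with few other replication genes. In the 46 cells of all gates with 7 or fewer of the genes, thymidylate synthase Tyms was still detected in 40. Pola2, a subunit of the polymerase that starts new strands, was detected in 28. Over all 46 cells Tyms and Pola2 had medians of 5.71 and 1.65 TPM. At a stricter level of 10 TPM they were present in 13 and 2 of these cells. Next came the clamp loader subunit Rfc2 in 13 cells, Pcna in 10 and Rrm2 in 7. Of the 39 genes 13, among them Mcm2, Mcm3 and Mcm5, were detected in none. These cells were picked by their count of the same genes, so most members had to be missing in each, and the numbers only describe them. With Tyms and Pola2 left out, the mean number of genes per cell was 6.30, 17.2 and 17.3 in Ly6g high, Ly6g low and CD11b+ cells.

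**Figure D1:**
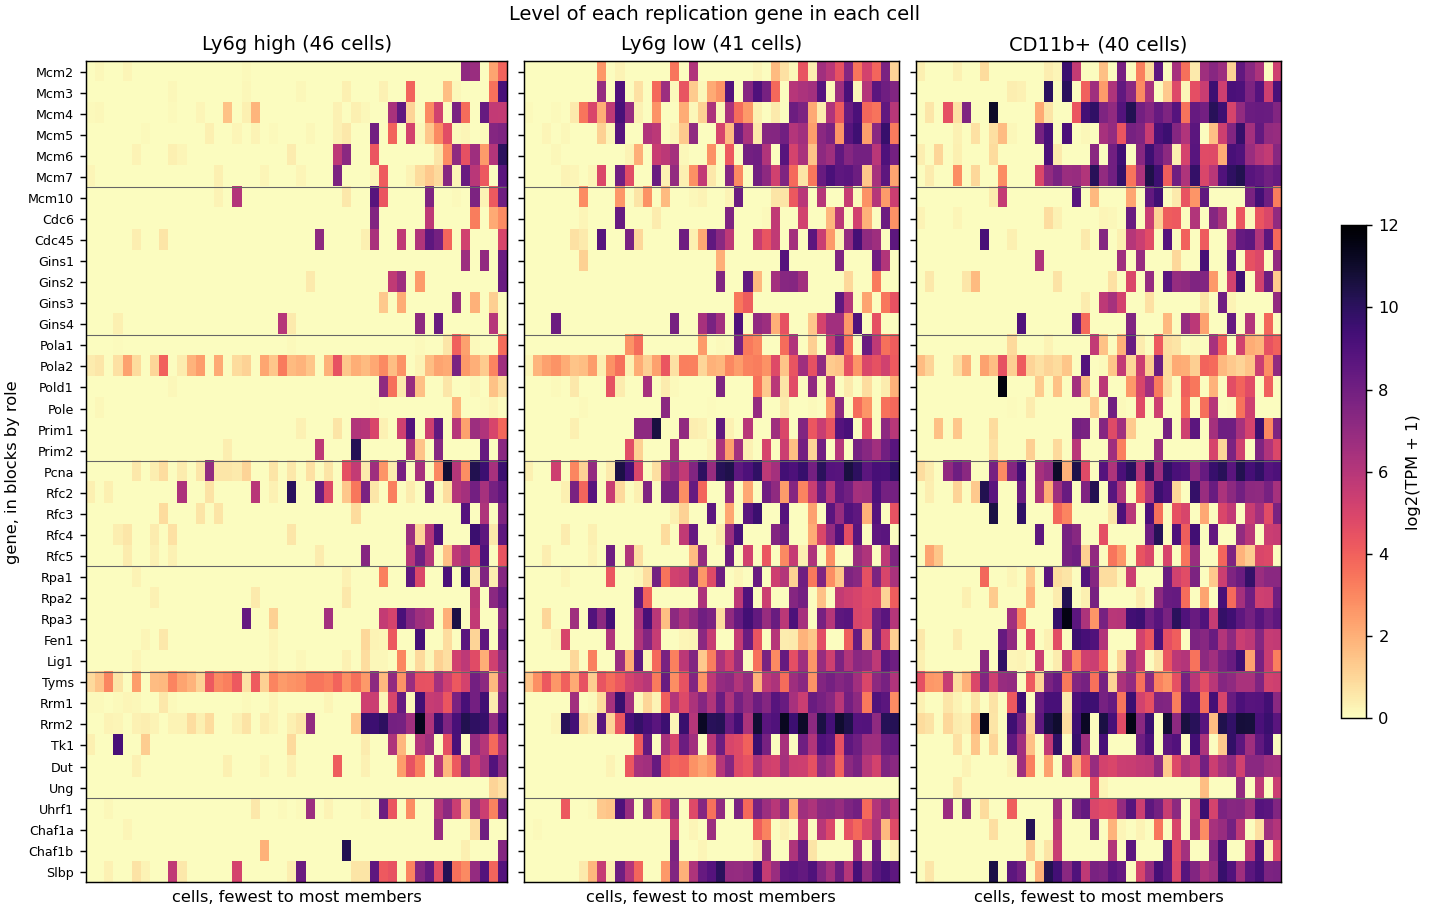
Level of each of the 39 replication genes (rows, in blocks by role) in each cell (columns, ordered from fewest to most of the genes detected) of the 3 gates, as log2(TPM + 1) in colour. Most columns of the Ly6g high panel are pale except in the rows of Tyms and Pola2, and 15 of its 46 cells have 12 or more of the genes.

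The number of replication genes followed the number of all genes detected. Across the cells of a gate Spearman's rho between the 2 counts was 0.71 in Ly6g high (46 cells), 0.77 in Ly6g low (41) and 0.86 in CD11b+ (40), and Pearson's r was 0.74, 0.72 and 0.85. Both counts come from the same library of each cell and share its depth, so these values are a description. Per 1000 genes detected, pooled over the cells of a gate, there were 4.24 replication genes in Ly6g high, 7.05 in Ly6g low and 7.01 in CD11b+ cells.

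At matched numbers of genes the Ly6g high cells still had fewer replication genes in most ranges. Between 2000 and 2500 genes the median was 12 of the 39 in 10 Ly6g high cells (lowest 1, highest 23), 18 in 11 Ly6g low cells (7 to 30) and 21.5 in 8 CD11b+ cells (8 to 29). Between 2500 and 3000 genes the medians were 16, 22.5 and 26 in 6, 8 and 5 cells, and between 1500 and 2000 genes 3, 4.5 and 6 in 13, 6 and 8 cells. Above 3000 genes the order was not seen, with 33 in the single Ly6g high cell against medians of 27 and 28.5 in 13 and 14 cells. In the range of 1500 to 3000 genes as a whole the mean was 10.1 in 29 Ly6g high, 16.5 in 25 Ly6g low and 15.6 in 21 CD11b+ cells. The single Ly6g high cell above 3000 genes belonged to the class Mono, and the gate's mean over its other cells was 7.31.

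**Figure D2:**
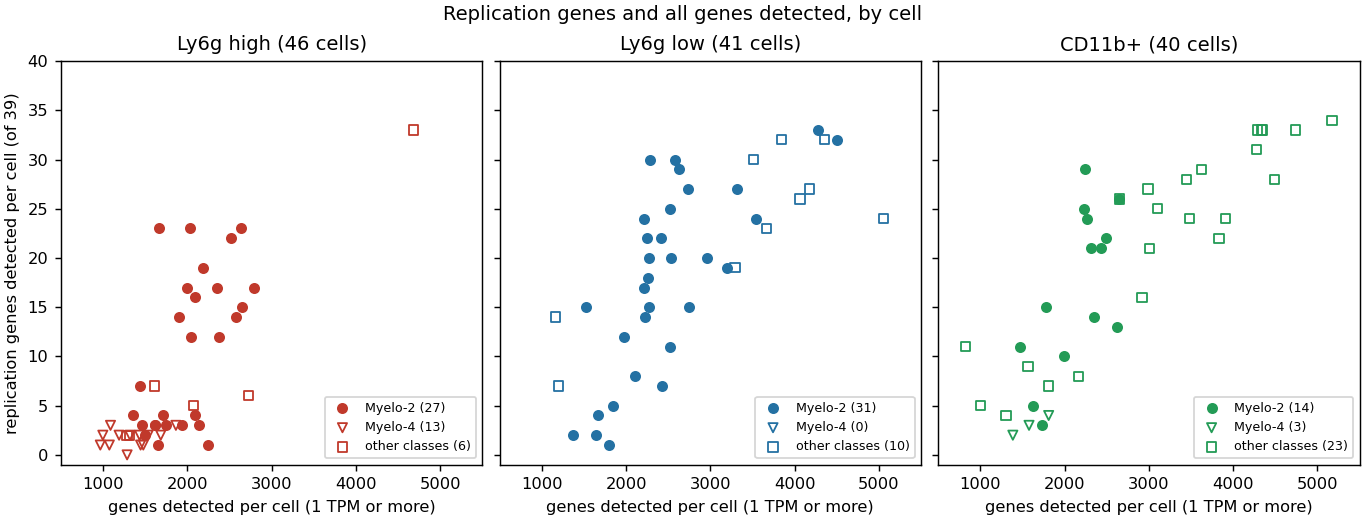
Number of replication genes detected per cell (vertical axis, of 39) against the number of all genes detected in the cell (horizontal axis), with 1 point per cell, 1 panel per gate and the marker giving the deposited class. Counts rise with genes detected in each panel, and no Ly6g high cell has 8 to 11 of the genes.

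The difference between Ly6g high and Ly6g low cells was seen for nearly every member as a share of cells. The median member was detected in 15.2% of Ly6g high, 46.3% of Ly6g low and 47.5% of CD11b+ cells, against 10.9%, 19.5% and 20% for the median of 9576 genes that passed the filter, a mean over the 3 gates of at least 1 TPM. Detection was lower in Ly6g high than in Ly6g low cells for 38 of 39 members, the exception being Ung, and for 7650 of the 9576 genes. CD11b+ cells detected 39 of 39 members more often than Ly6g high cells, against 7478 of the 9576 genes. Against Ly6g low cells, CD11b+ cells detected 20 members more often and 19 less often, beside 5192 and 4255 of the 9576 genes.

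Within cells that had a transcript clearly, levels lay closer together. For the 23 members with at least 5 cells at 10 TPM or more in each gate, the median level in such cells had a median over members of 103 TPM for the Ly6g high, 130 TPM for the Ly6g low and 194 TPM for the CD11b+ gate. The median log2 ratio of these levels was -0.23 for Ly6g high over Ly6g low, with 17 members lower and 6 higher. For 4 of the 23 the level was at least 2-fold lower, and for 3 at least 2-fold higher. For CD11b+ over Ly6g high the median was 0.69, with 16 members higher (8 at least 2-fold) and 7 lower (3 at least 2-fold). For CD11b+ over Ly6g low it was 0.27, with 15 higher (5 at least 2-fold) and 8 lower (1 at least 2-fold). The shares over all genes at this level were not computed.

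**Figure D3:**
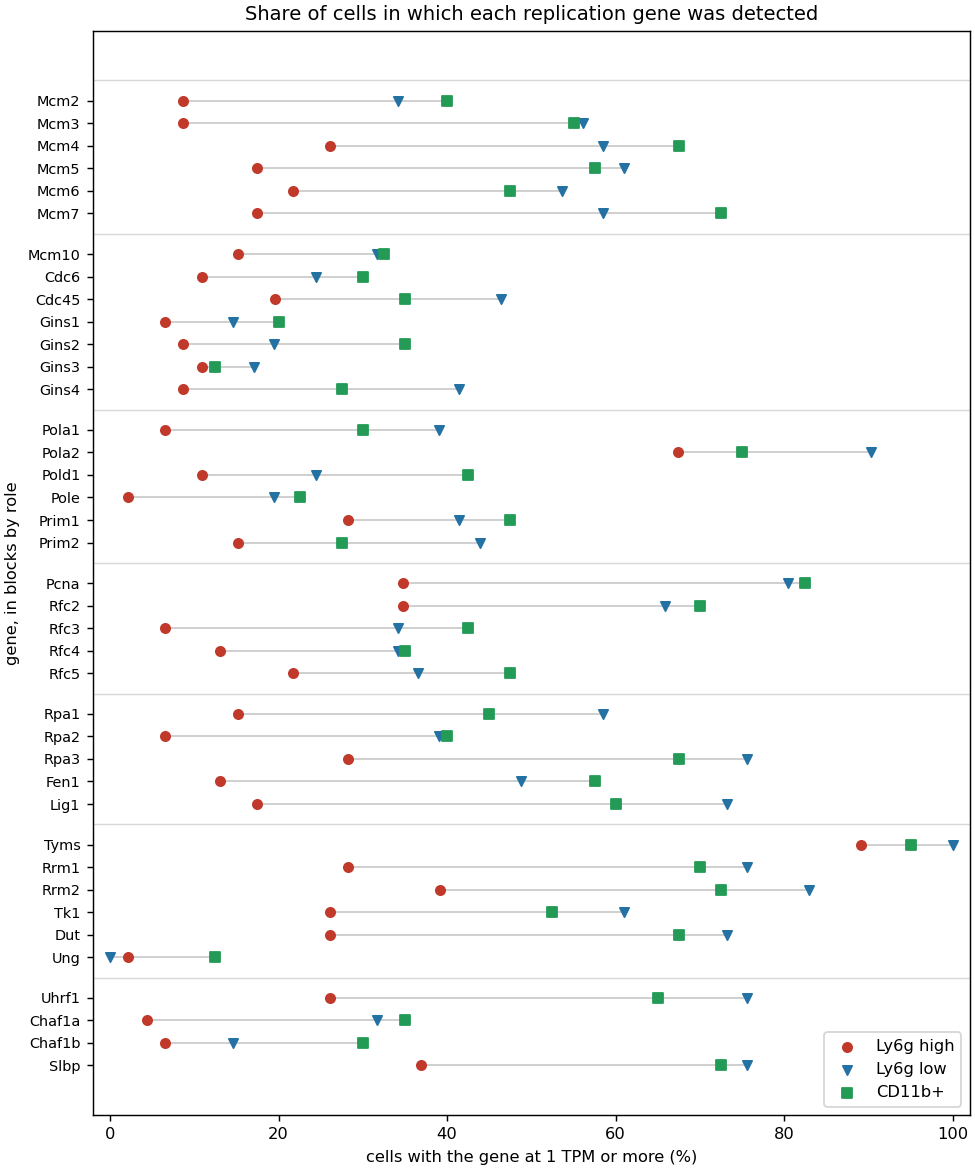
Share of the cells of each gate (horizontal axis, %) in which each replication gene (rows, in blocks by role) was at 1 TPM or more. The Ly6g high point lies leftmost for 38 of the 39 genes, and Ung was detected in no Ly6g low cell.

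As gate means, most replication genes were lower in Ly6g high than in Ly6g low cells. The log2 ratio of mean TPM, after 1 TPM was added to each mean, had a median of -1.41 over the 39 members and of -0.22 over all 9576 genes tested. It was at least 2-fold lower in Ly6g high cells for 27 members, against 28.6% of all genes, and at least 2-fold higher for 0, against 17.5%. The values ran from -3.89 for Pola1, the catalytic subunit of the strand-starting polymerase, to 0.77 for Mcm10, a factor that helps to activate the helicase. The gate means of Ly6g high cells rest on few cells: for 16 of the 39 members 1 cell gave over 50% of the summed TPM, against 1 member in Ly6g low and 5 in CD11b+ cells.

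CD11b+ cells had higher levels of most members than Ly6g high cells, while against Ly6g low cells the members lay near the median of all genes. These comparisons share the Ly6g high or Ly6g low cells with the one above. Against Ly6g high cells the median log2 ratio was 1.86 over the members and 0.80 over all genes, with 35 members at least 2-fold higher (45.1% of all genes) and 0 lower (13.9%). The 4 members within 2-fold were Prim2 at -0.96, Rfc5 at 0.04, Chaf1b at 0.99 and Rpa1 just under 1. Against Ly6g low cells the median was 0.50 over the members and 0.52 over all genes. There 12 members were at least 2-fold higher, against 36.1% of all genes, and 1, the primase subunit Prim2, was at least 2-fold lower, against 13.2%. One of the 12 is Ung, which is listed at 0 in every Ly6g low cell, so no fold is given for it.

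Much of the TPM of these cells belonged to neutrophil granule genes, and their share differed between gates. The summed TPM of Camp, Ltf, Ngp, Lcn2 and Cebpe had a median of 19% of a cell's transcripts in Ly6g high, 20% in Ly6g low and 5.37% in CD11b+ cells. Per cell it ran from 77.5 to 254472, from 93.2 to 272687 and from 30.7 to 272153 TPM, and all 5 genes were present in every gate. When TPM was rescaled without the 20 most abundant genes, the median over all genes went from 0.52 to 0.07 for CD11b+ over Ly6g low and from 0.80 to 0.21 for CD11b+ over Ly6g high. The members' medians then became 0.03 and 1.53. For Ly6g high over Ly6g low, rescaling gave -1.36 for the members and -0.07 for all genes.

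Markers of progenitors also differed between the gates. The summed TPM of Kit, Cd34, Myb, Flt3 and Meis1 had a median of 0.20 TPM (0 to 1338) per cell of the Ly6g high gate, 8.67 TPM (0 to 1054) of the Ly6g low gate and 63.3 TPM (0 to 9875) of the CD11b+ gate, with Flt3 at 0 in the latter 2 gates. Monocyte markers (Irf8, Csf1r, Ly86, F13a1, Ccr2, Ms4a6c and Klf4) summed to 1 TPM or more in 6, 11 and 19 cells of the 3 gates. Their part in the differences of the replication genes was not tested.

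Promoter windows were read for the members from RefSeq (mouse build GRCm38.p6), since most of them were lower in Ly6g high than in Ly6g low cells. Windows were present for 32 of the 39 members, 37 windows in all, and the 250 bases before each start were searched on both strands for the 8-base sites of E2F factors, which drive genes at the start of S phase. The letters searched were TTTCCCGC, TTTCGCGC, TTTGCCGC and TTTGGCGC. A site was present in 8 of the 37 member windows (21.6%) and in 611 of the 32851 windows of all genes (1.86%). The letters CCAAT, the core of the site of the factor NF-Y, were present in 22 of 37 (59.5%) and in 11120 of 32851 (33.8%). Such a match is a description of the letters and not evidence of binding in these cells.

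The 4 windows below belong to the members with the lowest ratio of Ly6g high over Ly6g low cells among those with an E2F site in the last 200 bases before the start. Each is written 5′ to 3′ on the strand of the gene and ends at the base before the start, with the E2F letters, or their reverse complement, in capitals. Pola1 is at chrX:93632156-93632355 on the minus strand, Mcm5 at chr8:75109309-75109508 on the plus strand, Rfc3 at chr5:151651209-151651408 on the minus strand and Cdc6 at chr11:98907951-98908150 on the plus strand.
Pola1: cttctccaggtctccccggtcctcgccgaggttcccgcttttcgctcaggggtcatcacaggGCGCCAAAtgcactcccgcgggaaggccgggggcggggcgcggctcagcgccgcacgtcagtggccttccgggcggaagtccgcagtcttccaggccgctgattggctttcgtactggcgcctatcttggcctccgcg
Mcm5: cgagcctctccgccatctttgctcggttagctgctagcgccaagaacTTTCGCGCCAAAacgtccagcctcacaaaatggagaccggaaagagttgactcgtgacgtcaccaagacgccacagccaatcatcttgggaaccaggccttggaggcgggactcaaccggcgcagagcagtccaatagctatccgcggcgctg
Rfc3: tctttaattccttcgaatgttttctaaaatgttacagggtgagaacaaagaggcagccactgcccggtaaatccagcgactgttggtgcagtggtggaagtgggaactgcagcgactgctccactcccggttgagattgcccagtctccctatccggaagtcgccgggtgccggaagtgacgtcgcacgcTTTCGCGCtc
Cdc6: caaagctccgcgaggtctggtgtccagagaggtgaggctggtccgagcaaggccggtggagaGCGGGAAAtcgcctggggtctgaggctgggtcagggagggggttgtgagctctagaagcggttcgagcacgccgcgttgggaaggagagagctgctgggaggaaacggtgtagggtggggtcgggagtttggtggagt
The Mcm5 window holds 2 overlapping sites, 1 on each strand, and the site of Rfc3 begins 10 bases before the start. Those of Pola1 and Cdc6 begin 138 bases before it. The log2 ratios of Ly6g high over Ly6g low cells were -3.89 for Pola1, -2.72 for Mcm5, -2.53 for Rfc3 and -1.92 for Cdc6.

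The 6 subunits of the MCM helicase, the ring that unwinds DNA at the fork, were all at least 2-fold lower in Ly6g high than in Ly6g low cells. Over all genes 28.6% were. A Ly6g high cell had 1 of the 6 subunits detected on average, a Ly6g low cell 3.22 and a CD11b+ cell 3.40. No subunit was detected in 28 of 46, 6 of 41 and 8 of 40 cells, and all 6 in 1, 6 and 9 cells. In every gate the lowest cell stood at 0 TPM for each of the 21 members whose levels are given below by median and highest cell. The median log2 ratio of the 6 was -1.67 for Ly6g high over Ly6g low and 3.27 for CD11b+ over Ly6g high.

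Mcm3 was detected in 4 Ly6g high, 23 Ly6g low and 22 CD11b+ cells, with median levels of 0, 5.49 and 5.70 TPM and highest cells at 595, 577 and 1063 TPM. Its mean of log2(TPM + 1) was 0.43 ± 1.55 (SD over 46 cells) in Ly6g high, 3.64 ± 3.64 (41) in Ly6g low and 3.64 ± 3.79 (40) in CD11b+ cells. A single Ly6g high cell, of the class Mono, thus carried most of the gate's Mcm3, with 95.5% of its summed TPM. Mcm4 was detected in 12, 24 and 27 cells, with medians of 0, 3.41 and 149 TPM and highest cells at 361, 594 and 2172 TPM. Its mean level rose in the order Ly6g high, Ly6g low and CD11b+, at 24.7, 69.6 and 274 TPM. Mcm7 stood in the same order at 25.8, 98.6 and 265 TPM, detected in 8, 24 and 29 cells with medians of 0, 6.57 and 76.3 TPM. For Mcm4 and Mcm7 the CD11b+ mean was higher than the Ly6g low mean by log2 ratios of 1.96 and 1.42, and for Mcm3 by 0.49.

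Among the 7 factors that load or activate the helicase, 6 were at least 2-fold lower in Ly6g high than in Ly6g low cells and Mcm10 was not. Their median log2 ratio was -1.77, and all 7 were at least 2-fold higher in CD11b+ than in Ly6g high cells. Over all genes 28.6% were at least 2-fold lower in the first comparison and 45.1% at least 2-fold higher in the second. Cdc45, which joins the MCM ring in the active helicase, was detected in 9 Ly6g high, 19 Ly6g low and 14 CD11b+ cells, with medians of 0, 0.67 and 0 TPM and highest cells at 384, 632 and 584 TPM. Its mean level was 22.8, 86 and 66.2 TPM. Gins4, a subunit of the GINS complex that joins the same assembly, was detected in 4, 17 and 11 cells, with medians of 0 and highest cells at 304, 522 and 506 TPM. The means of Cdc45 and Gins4 were both highest in Ly6g low cells. Mcm10 was detected in 7, 13 and 13 cells at means of 26.2, 14.9 and 76.3 TPM, so that fewer Ly6g high cells gave a higher mean than Ly6g low cells. With the mean of log2(TPM + 1) in place of mean TPM, its Ly6g high over Ly6g low value was -0.40.

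The polymerase and primase genes held both the lowest ratio and the exception among the CD11b+ cells. Of the 6, 4 were at least 2-fold lower in Ly6g high than in Ly6g low cells (against 28.6% of all genes). The remaining ones were Pola2 at -0.47 and Prim2 at -0.27. Prim1, the catalytic primase subunit, was detected in 13 Ly6g high, 17 Ly6g low and 19 CD11b+ cells, with highest cells at 471, 1533 and 764 TPM and means of 29.3, 97.8 and 77.9 TPM. Its partner Prim2 was detected in 7, 18 and 11 cells, with highest cells at 1158, 422 and 201 TPM and means of 42.1, 50.9 and 21.1 TPM. A single Ly6g high cell gave 59.8% of the Prim2 sum. Prim2 was thus the 1 member whose CD11b+ mean was at least 2-fold under the Ly6g low mean, at -1.23. Pold1, the catalytic subunit of polymerase delta, was detected in 5, 10 and 17 cells with means of 5.84, 14.8 and 93.3 TPM. A single CD11b+ cell of the class HSCP-2, at 3334 TPM, gave 89.4% of the Pold1 sum there, and once the top cell of each gate was dropped, its log2 ratio of CD11b+ over Ly6g low fell from 2.58 to -0.019.

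Pcna, the sliding clamp that holds polymerases on DNA, was among the most widely detected members. It was present in 16 Ly6g high, 33 Ly6g low and 33 CD11b+ cells, with medians of 0.49, 241 and 254 TPM and highest cells at 1806, 1521 and 2149 TPM. Its mean of log2(TPM + 1) was 2.35 ± 3.35, 6.52 ± 3.75 and 6.72 ± 3.60, and its mean level 116, 427 and 430 TPM, nearly the same in the latter 2 gates. Of the clamp and loader genes as a group, 2 of 5, Pcna and Rfc3, were at least 2-fold lower in Ly6g high than in Ly6g low cells (against 28.6% of all genes), with a median of -0.76 for the 5. Rfc2, a loader subunit, was detected in 16, 27 and 28 cells, with medians of 0.12, 42.3 and 75.5 TPM and means of 66.1, 112 and 202 TPM. Rfc4 was detected in 6, 14 and 14 cells with means of 48.7, 83 and 101 TPM, and its Ly6g high over Ly6g low ratio was -0.76. The loader subunits other than Rfc3 thus differed by less than 2-fold in mean level while being detected in fewer Ly6g high cells.

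For single-strand binding and strand joining, 3 of 5 genes (Rpa2, Rpa3 and Lig1) were at least 2-fold lower in Ly6g high than in Ly6g low cells. The share over all genes was 28.6%. Rpa3, the small subunit of the RPA complex that coats unwound DNA, was detected in 13 Ly6g high, 31 Ly6g low and 27 CD11b+ cells. Its medians were 0, 98.4 and 154 TPM, its highest cells 1417, 645 and 2975 TPM and its means 66.4, 179 and 319 TPM. Rpa1, the large subunit, was detected in 7, 24 and 18 cells but at means of 43.2, 58.6 and 87.1 TPM, a log2 ratio of -0.43 for Ly6g high over Ly6g low. Fen1, the nuclease that trims lagging-strand fragments, was detected in 6, 20 and 23 cells with means of 37.4, 41.5 and 108 TPM. Rpa1 and Fen1 were therefore detected in a smaller share of Ly6g high than of Ly6g low cells, yet their gate means lay within 2-fold. Lig1, which seals those fragments, was detected in 8, 30 and 24 cells, and its Ly6g high to Ly6g low ratio was -3.45 on the log2 scale.

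The nucleotide supply genes include Rrm2, the member with the highest mean level in all 3 gates. Rrm2, the regulated subunit of ribonucleotide reductase, was detected in 18 Ly6g high, 34 Ly6g low and 29 CD11b+ cells, with medians of 0.33, 591 and 418 TPM and highest cells at 2650, 2508 and 2895 TPM. Its mean of log2(TPM + 1) was 3.41 ± 4.24, 7.48 ± 3.82 and 6.46 ± 4.48, and its mean level 247, 707 and 716 TPM. Rrm1, the large subunit, was detected in 13, 31 and 28 cells with medians of 0.09, 75.1 and 169 TPM and means of 69.3, 136 and 254 TPM. Its ratio of Ly6g high to Ly6g low cells, -0.97 on the log2 scale, lay just short of 2-fold. Tk1, which salvages thymidine in S phase, was detected in 12, 25 and 21 cells with medians of 0, 30.9 and 1.58 TPM and means of 36.6, 124 and 195 TPM. In all, 4 of the 6 genes (Tyms, Rrm2, Tk1 and Dut) were at least 2-fold lower in Ly6g high than in Ly6g low cells. The share over all genes was 28.6%. Ung, which removes uracil from DNA, was detected in 1 Ly6g high cell at 1.07 TPM and in 5 CD11b+ cells of up to 129 TPM. It was listed at 0 in all 41 Ly6g low cells, which allows a share of up to 8.60% of cells (exact 95% interval).

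Of the 4 chromatin duplication genes, Uhrf1 and Slbp were at least 2-fold lower in Ly6g high than in Ly6g low cells, at -1.77 and -1.31. Over all genes 28.6% were. Uhrf1, which carries DNA methylation through replication, was detected in 12 Ly6g high, 31 Ly6g low and 26 CD11b+ cells, with medians of 0, 59.4 and 41.6 TPM, highest cells at 281, 528 and 750 TPM and means of 23, 81 and 124 TPM. Slbp, which binds the stem-loop of histone messages, was detected in 17, 31 and 29 cells, with medians of 0.22, 111 and 167 TPM and means of 78.5, 197 and 267 TPM. Chaf1b, a subunit of the histone chaperone CAF-1, was rarer, in 3, 6 and 12 cells with means of 30.2, 25.9 and 61 TPM. A single Ly6g high cell gave 87.6% of its sum there, so the gate mean of Chaf1b describes that cell, which is of the class HSCP-2.

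The comparison of gates mixes classes, and within the class Myelo-2 the replication genes were again less widespread in Ly6g high cells. Myelo-2 cells had 10.6 ± 7.87 members detected in Ly6g high (27 cells, lowest 1, median 12, highest 23), 17.7 ± 9.44 in Ly6g low (31 cells; 1, 19 and 33) and 17.1 ± 8.08 in CD11b+ (14 cells; 3, 18 and 29). Of the Ly6g high Myelo-2 cells 13 had at most 7 members and 14 had 12 or more. Among Myelo-2 cells with 1500 to 3000 genes the means were 11.7, 16.5 and 17.5 in 23, 25 and 13 cells, whose median numbers of genes were 2092, 2267 and 2271.

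In gate means over Myelo-2 cells, the ratios of Ly6g high to Ly6g low cells had a median of -0.91 on the log2 scale for the members and -0.03 for all genes. At least 2-fold lower were 19 members (25.8% of all genes), and at least 2-fold higher 1, Mcm10 at 1.35 (18.4%). The clearest member was Mcm3, detected in 3 of the 27 Myelo-2 cells of the Ly6g high gate and in 14 of the 31 of the Ly6g low gate, at means of 1.02 and 64.2 TPM. Mcm2, Mcm4, Rrm1 and Fen1 stood at 0.30, -0.05, 0.31 and 0.71, so the helicase subunits did not share 1 ratio within the class. CD11b+ Myelo-2 cells over Ly6g high ones had a median of 1.62 against 0 for all genes, with 24 members at least 2-fold higher (21.9%) and 1 lower (26.6%), Prim2. Over Ly6g low Myelo-2 cells the median was 0.63 against -0.11 for all genes, with 12 members at least 2-fold higher (18.1%) and 5 lower (30.6%).

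**Figure D4:**
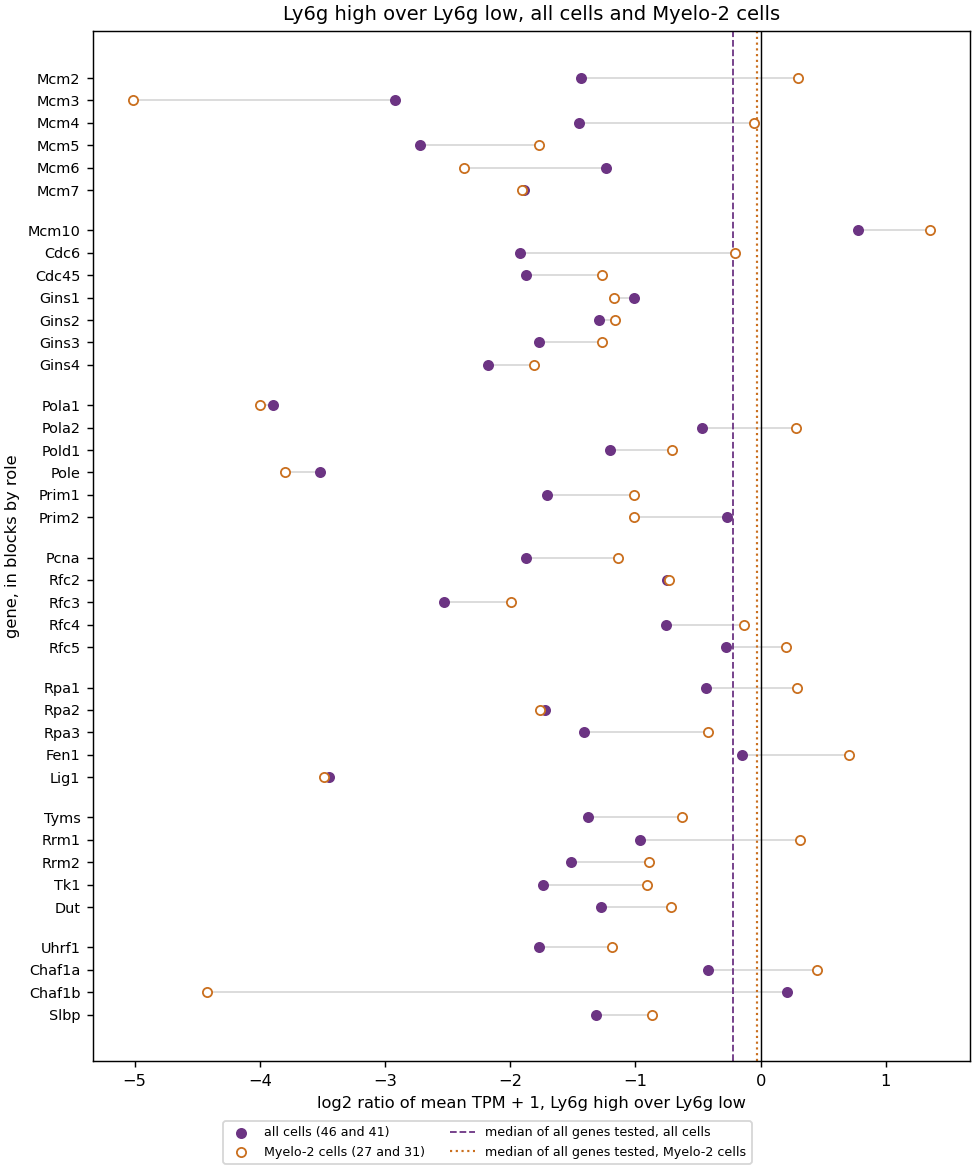
Log2 ratio of mean TPM + 1 of Ly6g high over Ly6g low cells for 38 of the 39 replication genes (Ung, at 0 in all Ly6g low cells, is left out), over all cells (filled) and over Myelo-2 cells (open), with the median of all genes tested as vertical lines. The members' median of -1.41 over all cells lies left of the dashed line at -0.22, and Mcm3 and Chaf1b moved furthest to the left in Myelo-2 cells.

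Cells of the class Myelo-4 were almost without replication transcripts. The 13 Ly6g high Myelo-4 cells had 1.69 ± 0.85 members detected (0 to 3), and their median number of genes was 1318 against 2030 in Ly6g high Myelo-2 cells. Tyms was detected in 10 of the 13, Pola2 in 5, Rfc2 and Slbp in 2 each, and Mcm4, Pcna and Tk1 in 1 each. The other 32 members were detected in none, and the share of all genes detected in none was not computed. Low counts were not confined to this class. All 16 Ly6g high cells with fewer than 1500 genes, Myelo-2 and Myelo-3 cells among them, had at most 7 members, with a median of 2. The log2 ratio over Ly6g high Myelo-2 cells had a median of -3.91 for the members and -0.51 for all genes, with 33 members at least 2-fold lower (42.7% of all genes) and 0 higher (13%). The 3 Myelo-4 cells of the CD11b+ gate had 2 to 4 members. The classes were made by the authors from these same cells, so a comparison of classes describes them and is no independent result.

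Several classes had many replication genes, and these were not confined to the CD11b+ gate. The 8 CD11b+ cells of the classes Gran-1 and Gran-2 had 28.2 ± 3.99 members (22 to 33), all 8 of them with Mcm4, Mcm6, Mcm7, Pcna, Rrm1, Rrm2, Slbp, Dut, Rpa3, Tyms and Pola2. The share of all genes detected in all 8 was not computed. These cells also had many genes in all, with a median of 4094 against 2259 in CD11b+ Myelo-2 cells. Per 1000 genes detected, pooled over cells, they had 7.16 members against 7.91 in the CD11b+ Myelo-2 cells. Over the latter cells the median ratio was 0.45 for the members and 0.69 for all genes, with 14 members at least 2-fold higher (44.7% of all genes) and 5 lower (15.4%). The 3 CD11b+ cells of the class Mono had 33, 33 and 34 members, and the 1 Mono cell each of the Ly6g high and Ly6g low gates had 33 and 32. In the Ly6g low gate the 4 Myelo-1 cells had a mean of 27 members (19 to 32), and the 2 Gran-2 cells had 24 and 26.

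In the 5 CD11b+ cells of the class HSCP-2 some replication genes were detected and others were not. They had 15.8 ± 7.40 members detected (8 to 25). The helicase subunit Mcm7 was detected in 4 of the 5 at a mean of 385 TPM, Pcna in 4 at 68.7 TPM and Slbp in 4 at 480 TPM. Rrm2, Tk1, Cdc45, Prim1, Chaf1b and all 4 GINS genes were detected in 0 of the 5 (which allows a share of up to 52.2%, exact 95% interval). The share of all genes detected in 0 of these cells was not computed. Among the 14 CD11b+ Myelo-2 cells Rrm2 was detected in 12 (mean 1143 TPM), Tk1 in 10 (276 TPM) and Prim1 in 7. The others were rarer there too, with Gins4 in 5, Cdc45 and Chaf1b in 4 each, Gins2 in 3, Gins3 in 2 and Gins1 in 1. None of the 5 had all 6 MCM subunits, and the mean was 3.2 of the 6 (1 to 5). Over CD11b+ Myelo-2 cells the median ratio was 0.79 against 0 for all genes, with 19 members at least 2-fold higher (36.3% of all genes) and 14 lower (29.6%). The 2 HSCP-2 cells of the Ly6g high gate had 5 and 6 members.

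**Figure D5:**
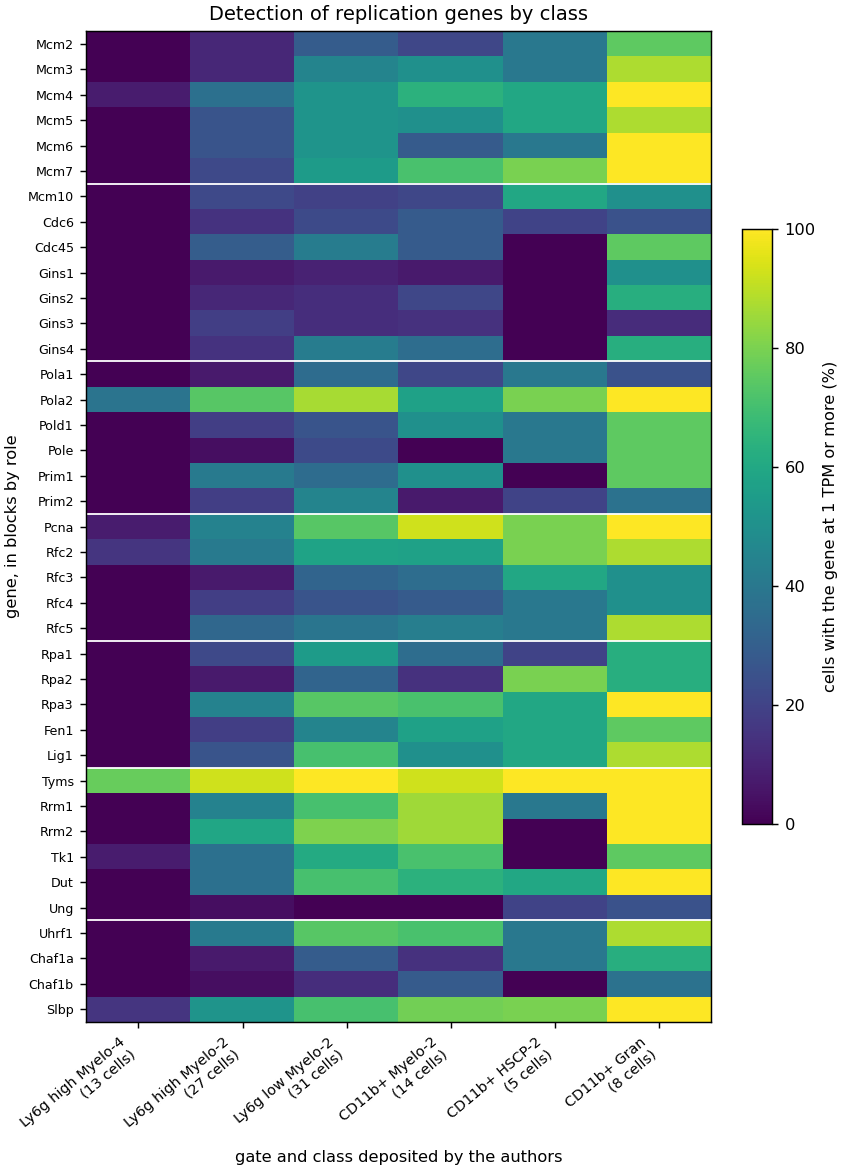
Share of cells (colour, %) in which each replication gene (rows, in blocks by role) was at 1 TPM or more, in 6 combinations of gate and deposited class (columns). Ly6g high Myelo-4 cells are dark in all rows but 7, the 8 CD11b+ Gran cells are bright in most rows, and the 5 HSCP-2 cells are at 0 for Rrm2, Tk1, Cdc45, Prim1, Chaf1b and the GINS genes.

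Other genes of the cell cycle were read beside the members, from lists chosen by function. Of 36 further replication genes, such as origin recognition and histone chaperone genes, 16 were at least 2-fold lower and 2 higher in Ly6g high than in Ly6g low cells, with a median log2 ratio of -0.89. Over all genes 28.6% were at least 2-fold lower and 17.5% higher. The histone chaperone gene Asf1b stood at 153, 490 and 470 TPM in Ly6g high, Ly6g low and CD11b+ cells, and Tipin, which steadies the fork, at 59.9, 107 and 301 TPM. Of 23 genes that control entry into S phase, 10 were lower (against 28.6% of all genes) and 3 higher (against 17.5%), with a median of -0.59. Among these the inhibitor Cdkn2d was at 314, 321 and 119 TPM and the cyclin Ccne2 at 22.7, 57.7 and 107 TPM. Of 25 mitosis genes, 5 were lower and 1 higher, both a smaller share than the 28.6% and 17.5% of all genes, and their median was -0.37 against -0.22 for all genes. Birc5, which acts in chromosome segregation, stood at 260, 383 and 237 TPM and Top2a, which untangles chromosomes, at 150, 194 and 194 TPM.

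Replication and mitosis genes did not run in parallel across the gates. Of the 25 mitosis genes a cell had a median of 8 in the Ly6g high, 16 in the Ly6g low and 10 in the CD11b+ gate, beside 3, 20 and 21.5 replication genes. Of the cells with at most 7 replication genes, 8 of 31 Ly6g high, 2 of 7 Ly6g low and 0 of 8 CD11b+ cells had at least 12 mitosis genes. Of the cells with at least 12 replication genes, 0 of 15 Ly6g high, 3 of 32 Ly6g low and 8 of 27 CD11b+ cells had at most 7 mitosis genes. Within Myelo-2 cells these numbers were 7 of 13, 2 of 6 and 0 of 2 for the first and 0 of 14, 2 of 23 and 2 of 10 for the second. In the CD11b+ HSCP-2 cells the median was 2 mitosis genes beside 16 replication genes, and in Ly6g high Myelo-2 cells 15 beside 12.

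Given the number of genes detected, Spearman's partial correlation across cells between replication and mitosis genes was 0.25 in Ly6g high (46 cells), -0.49 in Ly6g low (41) and 0.08 in CD11b+ cells (40). The plain Spearman correlation with mitosis genes was 0.64, 0.26 and 0.42. With the 36 further replication genes the partial correlation was 0.56, 0.73 and 0.56, and the plain one 0.80, 0.89 and 0.89. Each cell contributes both counts from 1 library. In Myelo-2 cells alone the partial correlation with mitosis genes was -0.18 in Ly6g high (27 cells), -0.50 in Ly6g low (31) and -0.54 in CD11b+ cells (14), so its sign turned in Ly6g high and CD11b+ cells.

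The genes most like the members were ranked over the cells of all gates by the Spearman correlation of their level with the number of members detected, after the part of that number that follows the number of genes detected was removed. Among 4104 genes detected in at least 20% of cells, and outside the member, replication, S phase entry and mitosis lists, the highest were Atad5 at 0.43, Wdr76 at 0.40, Nrm at 0.40, Tcf19 at 0.38 and Ncapg2 at 0.37. Atad5, which helps to unload Pcna, was detected in 8.70% of Ly6g high, 36.6% of Ly6g low and 37.5% of CD11b+ cells, and Tcf19 in 13%, 46.3% and 35%. Wdr76 was detected in 28.3%, 53.7% and 67.5%. These correlations pool the gates and describe them.

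Some counts may include reads of other genes. Exons of 12 members, among them Mcm7, Cdc45, Fen1, Lig1 and Tk1, overlap exons of a gene on the opposite strand in the GENCODE annotation, and no source used here says that strand was used in counting. Pcna has pseudogene copies that are not listed in the table, and the pseudogene Tyms-ps is listed at a mean of 0.08 TPM.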

How the data were processed

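The data are RNA profiles of 127 single cells in 3 sorted gates. The authors deposited 1 table of log2(TPM + 1) values, as read from the values themselves: turned back to TPM, they summed to between 999633 and 1005380 in each cell. The tools Bowtie2 and RSEM and the build mm9 are named per the submitters' processing notes, and their versions, the annotation, filters on cells and the treatment of doublets are not given in the sources used here. Cell classes came from a separate deposited file.

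Cells were placed in gates by their labels. TPM values were averaged over the cells of a gate or class, and 2 means were compared as a log2 ratio after 1 TPM was added to each, which understates differences of genes near 1 TPM. Genes with a mean over the 3 gate means of at least 1 TPM, 9576 in number, formed the background. Detection meant 1 TPM or more. Since each gate is 1 sample, no test was run and SDs are over cells. Reads per cell are not known and cells could not be thinned to 1 depth, so cells of 1500 to 3000 genes were compared instead.

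The 3 members with the highest mean level in each of 7 roles were given with their values in the 3 gates, 21 in all, and other members were named where they set an end of a range or were an exception. Lig1 and the members printed with their promoters were added after their values were seen. The members, roles and gene lists were chosen with earlier results of these data known. Promoter sequences are those of RefSeq (GRCm38.p6), and no coordinates were taken from the mm9 files. The ratio step was tested on resampled Ly6g low cells with 200 planted genes, and the detection counts were not tested in this way. Python 3.11.15, numpy 2.4.6, pandas 2.3.3, scipy 1.17.1 and matplotlib 3.10.9 were used. Alternatives covered the pseudocount (0.1 and 10 TPM), detection at 10 and 100 TPM, the filter, the kind of mean, rescaling, the highest cell of each gene, the cells with the fewest genes, genes per cell and class. Leaving out the Mono cell or Tyms with Pola2, Myelo-2 cells of 1500 to 3000 genes, and the correlations at 10 TPM or in Myelo-2 cells were chosen after the data were seen. Some marker lists of other blood cells are not reported here.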

Additional observations from a re-analysis of the deposited data

How the results depend on the processing

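Over the alternatives the members' median log2 ratio for Ly6g high over Ly6g low ran from -1.80 to -0.64, that of CD11b+ over Ly6g high from 1.26 to 2.29 and that of CD11b+ over Ly6g low from 0.03 to 0.77, so none changed sign. Ly6g high over Ly6g low moved to -0.82 in cells with 1500 to 3000 genes and to -0.64 in Myelo-2 cells of that range, where 16 members in place of 27 were at least 2-fold lower (22.2% of all genes). In those Myelo-2 cells CD11b+ over Ly6g high had a median of 1.26, with 23 members in place of 35 at least 2-fold higher (21.7%). With the mean of log2(TPM + 1), 3 members in place of 12 were at least 2-fold higher in CD11b+ than in Ly6g low cells (6.45%). After rescaling 8 were, and the share of all genes for that setting is not reported here. Detection at 100 TPM left 8.54 members per Ly6g low cell, beside 2.93 in Ly6g high and 9.78 in CD11b+ cells, and detection at 10 TPM left 0.46 per Ly6g high Myelo-4 cell. In Myelo-2 cells alone the correlation with genes detected was 0.53 in the 14 CD11b+ cells, and the partial correlation with mitosis genes was -0.54 there and -0.18 in Ly6g high cells. The cause of these shifts was not tested.

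Of the ratios of the 21 members given in full under these settings, 376 moved by at most 1.5-fold, 126 by more, and 2 changed sign after having passed 2-fold: Pold1 in CD11b+ over Ly6g low without the highest cell of each gate (-0.019) and Rfc4 in CD11b+ over Ly6g high within Myelo-2 cells (-0.20). No paired analysis was possible because the labels number single cells and name no animal or batch that gates share. Filters on low values changed only the background and not the members. The number of cells per gate and the unknown read depth limit all values for rarely detected members.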
